A study of Rattus norvegicus with 2 samples.

Results

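The stathmin family was examined in single cells of the rat cochlear duct at postnatal day 1 (P1) and postnatal day 7 (P7). Its 4 members, Stmn1 (ENSRNOG00000016810), Stmn2 (ENSRNOG00000011705), Stmn3 (ENSRNOG00000013657) and Stmn4 (ENSRNOG00000053334), were taken by symbol from the gene list of both libraries, where each stands once among 32623 genes. The family was put forward with earlier results of these data known, which had its members high in neurons or in dividing cells, so the levels below are a description and were not tested.

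Stathmins are small phosphoproteins that bind tubulin dimers, keep them out of the polymer and favour the shrinkage of microtubules. Kinases active in mitosis and in signalling phosphorylate them, which releases the tubulin. Stmn1 (stathmin, also Op18) is the cytosolic member and is best known from dividing and immature cells, where its phosphorylation accompanies the building of the mitotic spindle. Stmn2 (SCG10), Stmn3 (SCLIP) and Stmn4 (RB3) carry an added membrane anchor and are known as neuronal proteins of the Golgi, growth cone and axon. In the cochlea the main neurons are the spiral ganglion neurons, which carry signals from hair cells to the brainstem and extend and refine their processes around birth.

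Both groups were Sprague-Dawley rats with no treatment or genetic change. Each age was 1 droplet library (10x Genomics, 3′ chemistry), made by the study's methods from cochlear duct tissue pooled from 40 rats, so no animal could be followed and age cannot be told apart from library. The P1 library held 14068 barcodes and 114285848 unique molecular identifiers (UMIs, counted RNA molecules), and the P7 library 14501 barcodes and 101264868 UMIs. After the study's limits on genes and mitochondrial UMIs, 12779 and 12581 cells were kept, with median depths of 6565 and 6878 UMIs. With 1 library per age there is no replicate error and no test, and all intervals are 95% intervals that cover counting error only. The samples were labelled as greater epithelial ridge cells, but Epcam, which marks epithelium, had a UMI in 4.94% of kept P1 cells and 4.55% of kept P7 cells, and the kept cells were treated here as a mixed cochlear duct preparation. The 2 libraries shared 60 barcodes.

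The kept cells fell into 26 clusters, numbered K0 to K25 from the most to the fewest cells, without use of the stathmins or of the other microtubule genes examined below. Cluster K20 was called neuron-like: 19 of 20 neuronal markers had a UMI in at least 10% of its cells, whose median depth was 21170.5 UMIs. It held 288 cells of P1 and 0 of P7. This 0 depends on how the clusters were divided, and some other settings put up to 137 P7 cells in a neuron-like cluster. Clusters K10 and K12 were called dividing-like, with 980 cells at P1 and 913 at P7, and in K12 glial genes were high as well. The remaining 11511 P1 and 11668 P7 cells were pooled as other cells. Among them, cluster K19 (155 and 139 cells) carried both glial and neuronal markers and was left unnamed, and the pericytes-like cells of K24 (45 and 30 cells) carried markers of division.

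Promoter sequence was at hand for 2 of the 4 members, from the RefSeq promoter table on the GRCr8 build, which is not the build of the count tables. It is shown because these are the members with a promoter in that table, one high in dividing cells at both ages and one highest in neurons. The stretches run from 145 to 62 bases before the transcript start in the gene's direction, and capitals mark every match, on either strand, to TTTGGCGC or TTTCCCGC (E2F-type), CACGTG (E-box) or CCAAT.
Stmn1 (chr5:151965034-151965117, plus strand): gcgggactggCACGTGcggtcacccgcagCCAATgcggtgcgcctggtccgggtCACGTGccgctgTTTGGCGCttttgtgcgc
Stmn3 (chr3:188802556-188802639, minus strand): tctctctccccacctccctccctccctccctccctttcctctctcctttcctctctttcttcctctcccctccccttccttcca
In the 250 bases before the Stmn1 start there was 1 match to TTTGGCGC, 2 to CACGTG, 1 to CCAAT and 0 to TTTCCCGC, and in those before Stmn3 there was none. Over the same 250 bases of all 27457 promoters in the table, TTTGGCGC was found in 0.426%, TTTCCCGC in 0.856%, CACGTG in 5.79% and CCAAT in 34.3%. GC made up 67.6% of the Stmn1 stretch of 250 bases and 59.2% of the Stmn3 stretch, against a median of 52% over all. A match is a run of letters, and binding was not measured here.

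At P1, the level of each member was described per class as CPM, its UMIs per 1000000 UMIs of the class. Counts from the 3′ end are not divided by transcript length, so they compare genes per transcript end and not per base. In neuron-like cells Stmn1 stood at 2923 CPM (interval 2879.9 to 2966), Stmn2 at 3520.2 (3473 to 3568), Stmn3 at 2137 (2100.4 to 2174) and Stmn4 at 226 (214 to 238). Stmn2 was thus the most counted member in neurons and Stmn4 the least, with no interval overlapping another. In dividing-like cells Stmn1 reached 3205 CPM (3170.4 to 3240.3), while Stmn2 stood at 30.2, Stmn3 at 14.2 and Stmn4 at 1.19. In the other cells the 4 levels were 479.8, 41.1, 23.98 and 2.26 CPM. Stmn1 therefore gave 98.6% of all stathmin UMIs in dividing-like cells and 87.7% in other cells, but 33.2% in neuron-like cells, where Stmn2 gave 39.97%.

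Relative to other cells at P1, neuron-like cells were higher for all 4 members by a log2 ratio of 2.61 (2.58 to 2.63) for Stmn1, 6.42 (6.37 to 6.47) for Stmn2, 6.48 (6.41 to 6.55) for Stmn3 and 6.64 (6.42 to 6.87) for Stmn4. Of the 10904 genes with at least 200 UMIs in 1 of the 2 classes, 15.1% were at least 2-fold higher in neuron-like cells and 24.9% lower. Among these genes, ordered by ratio from the highest, Stmn4 was the 15th, Stmn3 the 31st, Stmn2 the 37th and Stmn1 the 443rd. The cells were grouped by other neuronal genes, so these places are descriptions. Neuron-like cells made up 2.25% of kept P1 cells and 6.18% of their UMIs, and held 85.3% of the Stmn2 UMIs, 86.01% of those of Stmn3 and 87.4% of those of Stmn4, but 19.8% of those of Stmn1.

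**Figure D1:**
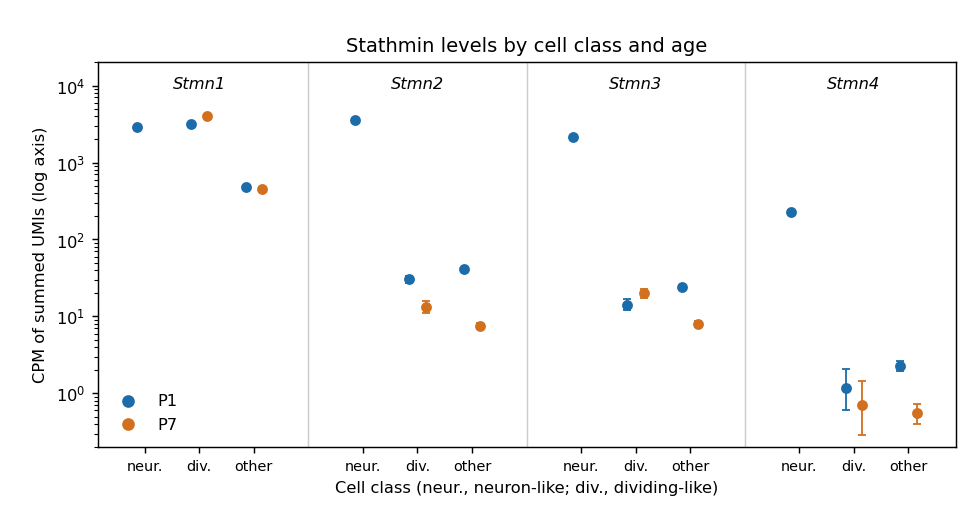
Levels of the 4 stathmins, as CPM of summed UMIs on a log axis, in neuron-like, dividing-like and other cells at P1 (blue) and P7 (orange); points are class sums of 1 library and bars 95% Poisson counting intervals. Stmn1 was high in 2 classes, while Stmn2, Stmn3 and Stmn4 were high in neuron-like cells, of which P7 had none.

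Almost every neuron-like cell carried the whole family: 281 of 288 (97.6%) had a UMI of all 4 members and the remaining 7 had 3. Stmn1 and Stmn2 were counted in 100% of these cells (98.7 to 100%), Stmn3 in 99.7% and Stmn4 in 97.9%. The cells were deep, and after each cell was thinned to 2000 UMIs, Stmn1 was found in 99.3%, Stmn2 in 99.7%, Stmn3 in 90.3% and Stmn4 in 36.5%. Levels varied several fold between neurons. Stmn1 ran from 682 to 7314 CPM per cell with a median of 2692, and Stmn2 from 441 to 9579 with a median of 3442. Stmn3 ran from 0 to 5041 with a median of 2009, with 1 cell at 0, and Stmn4 from 0 to 920.3 with a median of 203 and 6 cells at 0. The median cell held 72 UMIs of Stmn2 but 4 of Stmn4, a number at which counting error alone is wide.

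Stmn1 in dividing-like cells was 6.68-fold the level of other cells at P1 (3205 against 479.8 CPM, log2 ratio 2.74, interval 2.72 to 2.76) and 8.74-fold at P7 (3978 against 455 CPM, log2 ratio 3.13, interval 3.11 to 3.15). Of the genes with at least 200 UMIs on 1 side, 4.08% of 10826 at P1 and 5.20% of 10823 at P7 were at least 2-fold higher in dividing-like cells (5.05% and 10.3% were lower), and Stmn1 was the 149th and the 141st of them by ratio. RefSeq lists processed copies of Stmn1, with which reads may be shared, so its counts are uncertain to that extent. Both dividing clusters took part. K10 stood at 3077 CPM at P1 and 3674 at P7, and K12, with glial genes, at 3568 and 4174. The small pericytes-like cluster with markers of division, K24, had levels of the same order, 3115 CPM in 45 cells at P1 and 3849 CPM in 30 cells at P7. In neuron-like cells Stmn1 was 0.912 times the level of dividing-like cells, and the summed level of 23 markers of division was 366 CPM there against 7370 CPM in dividing-like cells.

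Stmn1 followed markers of division cell by cell. Cells were thinned to 2000 UMIs, neuron-like cells were set aside, and the rest were grouped by their UMIs of 23 markers of division such as Mki67, the classic antigen of cycling cells, and Top2a, a topoisomerase of replicating DNA. At P1 the Stmn1 level was 387 CPM in 5677 cells with no marker UMI, 601 with 2 or 3, 1771 with 4 to 7, 3247 with 8 to 15 and 4164 in 382 cells with 16 or more. At P7 the same groups gave 367, 641, 1836, 3389 and 4883 CPM. The order was also present among cells outside the dividing clusters: other cells with 8 to 15 marker UMIs stood at 2721 CPM in 43 P1 cells and 2750 CPM in 54 P7 cells. Of these, 17 and 15 cells were from K24, whose markers of division summed to 7265 CPM at P1 and 9436 CPM at P7, and without K24 the levels were 2173 CPM (1791 to 2613) in 26 cells and 2449 CPM (2114 to 2822) in 39 cells. Within the dividing-like cells, those with a higher summed level of 14 G2 and M phase markers than of 8 S phase markers had more Stmn1 (3609 CPM in 813 cells at P1 and 4393 CPM in 744 cells at P7) than those with the S phase list higher (1933 CPM in 104 cells and 3035 CPM in 100 cells). The 2 lists differ in size and level, so this split leans towards G2 and M.

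**Figure D2:**
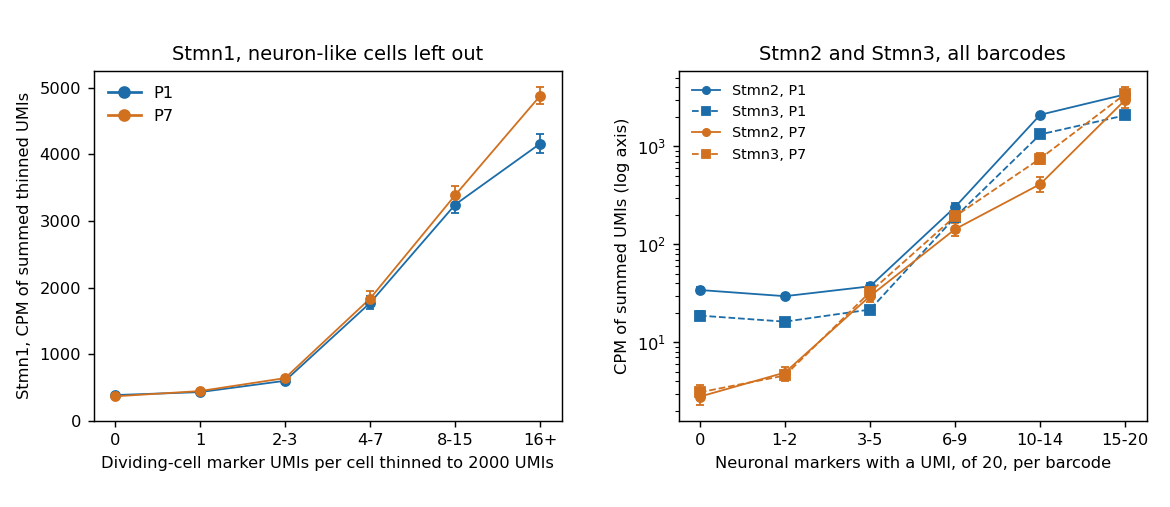
Left, Stmn1 CPM of summed thinned UMIs by the number of UMIs of 23 division markers in a cell thinned to 2000 UMIs; right, Stmn2 (circles) and Stmn3 (squares) CPM on a log axis by how many of 20 neuronal markers had a UMI in a barcode, P1 in blue and P7 in orange, bars being 95% Poisson counting intervals. Stmn1 climbed from 387 to 4164 CPM at P1 and from 367 to 4883 CPM at P7, and the last point on the right is a single barcode at P7 and 457 barcodes at P1.

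Outside neurons and dividing cells Stmn1 was counted in every cluster with at least 50 cells of a library. No cell type that should lack Stmn1 was at hand to set its background, so the part of free RNA in the lowest levels was not tested. Its level ranged from 269 to 1127 CPM over 14 clusters at P1 and from 149 to 1158 CPM over 15 clusters at P7. At P1 the highest of them were K19 (1127 CPM), endothelial cells-like K18 (969 CPM) and glia-like K5 (744 CPM), and the lowest were epithelial cells-like K15 (269 CPM) and interstitial mesenchyme-like K8 (274 CPM). At P7 glia-like K23 (1158 CPM) led, and the unnamed K13 was lowest at 149 CPM. Next to K23 came glia-like K0 (871 CPM), K19 (859 CPM) and endothelial cells-like K18 (839 CPM), with neighbouring intervals that overlapped. The 17 clusters of a library were put in order of Stmn1. The intervals of 8 of the 16 neighbouring pairs overlapped at P1 and those of 6 at P7. The order within those pairs is not read here, and an overlap of intervals does not show that neighbours are equal. For Stmn2 the neighbours overlapped in 13 and 14 of 16 pairs.

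**Figure D3:**
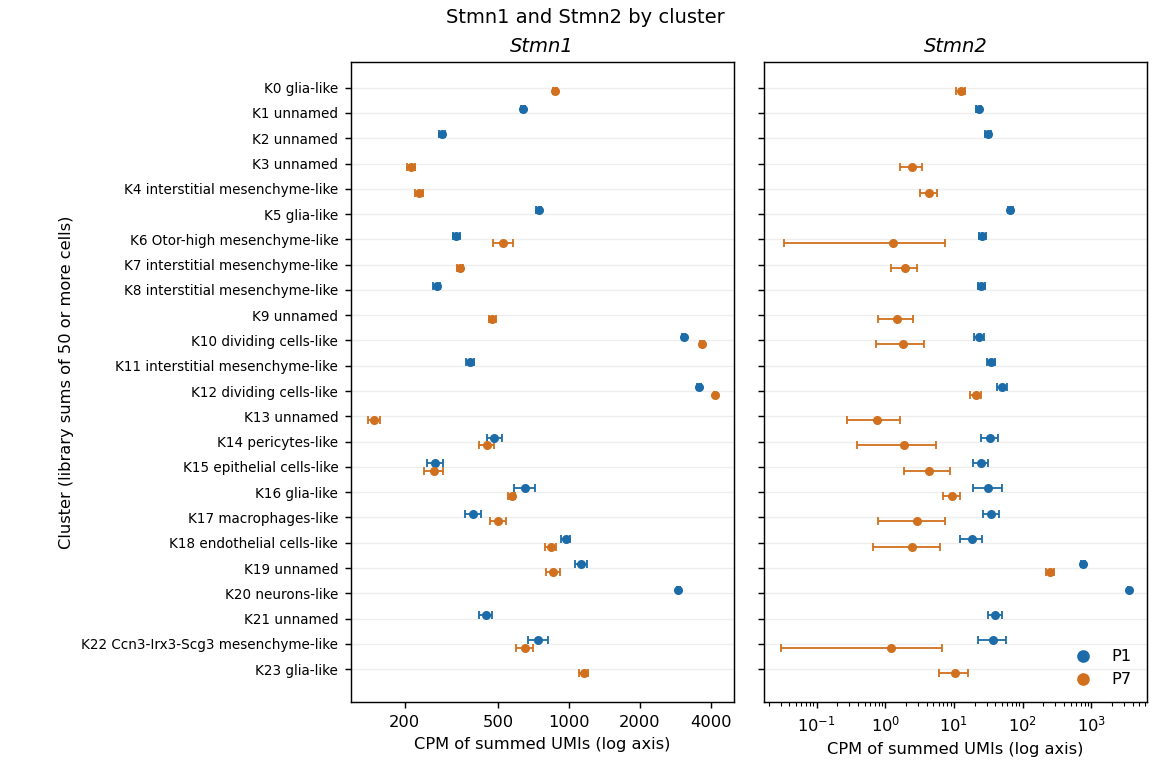
CPM of summed UMIs of Stmn1 (left) and Stmn2 (right), both on log axes, in each cluster with at least 50 cells of a library, P1 in blue and P7 in orange, with 95% Poisson counting intervals. The dividing clusters K10 and K12 and the neurons K20 hold the highest Stmn1, and Stmn2 is highest in K20 (3520.2 CPM) and next in K19 (752 CPM at P1 and 249.9 CPM at P7).

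Outside the neurons Stmn2, Stmn3 and Stmn4 were low, and several clusters but not all lay near a cell type that should lack them. Macrophages-like cells (K17), which are not known to make Stmn2, had a Stmn2 UMI in 20.6% of cells at P1 and in 2.25% at P7, with median depths of 7219 and 6968.5 UMIs, and levels of 34.9 and 2.86 CPM. After thinning, 7.91% (4.39 to 12.9%) of these cells had one at P1, and the other P1 clusters outside neurons, dividing cells and K19 ranged from 2.68 to 12.1%. Shares and levels up to that of macrophages cannot be told apart from background here. Of the K17 cells, 14.2% were called doublets, and the part of free RNA or doublets in these values was not tested. Glia-like K5 stood at 66.7 CPM (61.1 to 72.7), above the interval of macrophages (26.2 to 45.7), with 12.1% of thinned cells (10.5 to 13.8%), whose interval overlapped that of macrophages. At P7 glia-like K0 stood at 12.6 CPM of Stmn2 (10.8 to 14.6) and 10.3 of Stmn3 (8.61 to 12.1), against 2.86 (0.780 to 7.33) and 3.58 (1.16 to 8.36) in macrophages, and dividing-like K12 at 20.9 (17.4 to 24.9) and 30.5 (26.2 to 35.2). K19 was far above it at both ages, with 752 CPM of Stmn2, 438 of Stmn3 and 46.7 of Stmn4 at P1, and 249.9, 371 and 19.9 CPM at P7. In this cluster the 20 neuronal markers summed to 2883 CPM at P1 and 1650 at P7 against 11306 CPM in neuron-like cells. The 10 glial markers summed to 4776 and 13833 CPM against 1063 CPM. The cluster as a whole thus held RNA of both kinds, and whether single cells held both was not tested. Of its cells, 5.44% were called doublets, and the part of doublets in these levels was not tested.

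The balance of Stmn2 and Stmn3 differed in a few groups. Stmn3 made up 37.8% (37.3 to 38.3%) of the UMIs of both in neuron-like cells, and the intervals of 14 of 17 other P1 clusters with at least 20 such UMIs held that value. Glia-like K5 was below it at 30.5% (27.2 to 34.0%), as was the unnamed K21 at 27.1% (18.96 to 36.6%), of whose cells 73.1% were called doublets. Hair cells-like K25, with 21 P1 cells, was above it at 78.4% (70.6 to 84.9%), from 109 UMIs of Stmn3 (332 CPM, in 95.2% of cells) against 30 of Stmn2 (91.4 CPM). Its 20 neuronal markers summed to 1462 CPM, with 4 of them at 0, and its Stmn4 count was 0, against an interval up to 9.14 CPM. At P7, Stmn3 exceeded Stmn2 in K19 (59.8%, 55.7 to 63.7%) and in dividing-like K12 (59.4%, 53.7 to 64.9%). In K19 the Stmn2 level at P7 was 0.332 times that of P1 (log2 ratio -1.59, interval -1.80 to -1.38), whereas that of Stmn3 was closer to its P1 level (log2 ratio -0.24, interval -0.44 to -0.04).

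Between the ages, the members high in neurons differed most, and the neuron-like cells were found at P1 alone. Over all kept cells Stmn2 was 255 CPM at P1 and 8.14 CPM at P7 (31.3-fold lower), Stmn3 154 and 9.29 CPM (16.5-fold lower), and Stmn4 15.98 and 0.569 CPM (28.1-fold lower). Among 11780 genes with at least 200 UMIs at 1 age, 10.4% were at least 2-fold higher at P7 and 10.0% lower. Stmn1 was 912 CPM at P1 and 830.1 CPM at P7 (log2 ratio -0.14, interval -0.15 to -0.12). Without the neuron-like cells this turned to a log2 ratio of 0.09 (0.08 to 0.10), and it was 0.02 (-0.01 to 0.05) with each cell thinned to 2000 UMIs. Holding the level of each class as at P1 and taking the P7 share of UMIs of each class gave 769.8 CPM for Stmn1, 39.9 for Stmn2, 22.9 for Stmn3 and 2.15 for Stmn4, so the levels of the last 3 at P7 were lower still than the shares of the classes alone would give. By the study's methods the spiral ganglion was dissected away from the duct, and a differing remainder of ganglion, fewer neurons in the tissue and fewer neurons that survived dissociation cannot be told apart here.

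Within classes, Stmn1 was 1.24-fold higher at P7 in dividing-like cells (log2 ratio 0.31, interval 0.29 to 0.33). The class lay mostly in K10 at P1 (706 cells, with 274 in K12) and mostly in K12 at P7 (578 cells, with 335 in K10), and within these clusters the fold was 1.19 in K10 and 1.17 in K12. The 23 markers of division were also higher in the class at P7 (9822 against 7370 CPM). In its thinned cells with 8 to 15 marker UMIs, Stmn1 was 3313 CPM (3179 to 3452) at P1 and 3514 CPM (3360 to 3674) at P7. With 16 or more it was 4193 CPM (4045 to 4345) and 4889 CPM (4753 to 5028). The part of the marker level in the age difference was not tested. Stmn1 was 1.05-fold lower in other cells (log2 ratio -0.08, interval -0.10 to -0.06). The value in other cells became 0.05 (0.01 to 0.09) when each cell was thinned to 2000 UMIs, so no direction is drawn from it. Over the 10 clusters with at least 50 cells at both ages, the Stmn1 interval lay above 0 in 4, below 0 in 3 and held 0 in 3. The largest difference was in Otor-high mesenchyme-like K6, at 332 CPM at P1 and 524 CPM at P7 in 1488 and 100 cells. The unnamed K13, whose best marker list was also that of Otor-high mesenchyme, held 828 P7 cells at 149 CPM. No age difference of Otor-high mesenchyme as a whole is therefore read from K6. Stmn2 was lower at P7 in all 10 of these clusters, by log2 ratios from -4.92 to -1.26, and Stmn3 in 7 of 10. Macrophages-like cells, taken as background, were among them (log2 ratio -3.61 for Stmn2, interval -5.54 to -2.17). The Stmn2 difference was smaller in K12 (-1.26, interval -1.62 to -0.90) and K19 (-1.59, interval -1.80 to -1.38), whose intervals lay apart from that of macrophages. The intervals of the other clusters overlapped it. The part of free RNA in these differences was not tested.

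In the dividing-like cells Stmn2 was 30.2 CPM at P1 and 13.4 CPM at P7, and Stmn3 was 14.2 and 19.99 CPM. The P7 counts lay almost wholly in K12, with 126 of 133 UMIs of Stmn2 and 184 of 198 of Stmn3, while K10 had 7 and 14. In K12, 6 barcodes with at least 10 neuronal markers held 47 of the 133 and 86 of the 198. Relative to other cells, both genes were lower in dividing-like cells at P1 (log2 ratio -0.44, interval -0.62 to -0.27, for Stmn2 and -0.75, interval -1.01 to -0.51, for Stmn3) and higher at P7 (0.84, interval 0.56 to 1.11, and 1.32, interval 1.08 to 1.55). Without barcodes of at least 10 neuronal markers in the dividing-like cells, the P7 values were 0.22 (-0.12 to 0.55) and 0.51 (0.21 to 0.80), and without them in the other cells as well 0.41 (0.07 to 0.74) and 0.82 (0.51 to 1.12). Stmn3 in dividing-like cells was then 11.4 CPM at P7 against 13.1 CPM at P1. At P7, 239 of the 625 Stmn2 UMIs and 355 of the 667 Stmn3 UMIs of the other cells came from K19. Over all recomputed values, the P7 ratio of dividing-like to other cells ranged from 0.19 to 1.77 for Stmn2 and from 0.51 to 2.61 for Stmn3. The ratio was thus larger than the main value in some settings and smaller in others.

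Barcodes with many neuronal markers were few at P7 but not absent. Before any limit was set, 569 P1 barcodes and 23 P7 barcodes had UMIs of at least 10 of the 20 neuronal markers. In the P1 barcodes the members stood at 2801, 3231, 1980.2 and 199 CPM from Stmn1 to Stmn4, and in the P7 barcodes at 1796, 693, 1044 and 48.2 CPM. Of the 23 P7 barcodes, 12 lay in K19, 6 in dividing-like K12, 1 in glia-like K16 and 4 outside the limits on cells. One of the latter, with 40804 UMIs, 5923 genes and 16 neuronal markers, held 97 UMIs of Stmn1, 122 of Stmn2, 140 of Stmn3 and 8 of Stmn4, which is 2377, 2990, 3431 and 196 CPM. It alone gave 122 of the 259 Stmn2 UMIs of the 23 barcodes. The other 22 had from 0 to 13 UMIs of Stmn2 each and at most 13 neuronal markers, and they are not called neurons here. At P1 the level of Stmn2 stepped from 37.3 CPM in barcodes with 3 to 5 neuronal markers to 241 with 6 to 9, 2103 with 10 to 14 and 3398 with 15 or more, and at P7 from 29.6 to 143 and 412 CPM up to 14 markers.

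Barcodes of 5000 or more genes, which the study's limits remove, carried a large part of the neuronal stathmins. There were 384 of them at P1 and 86 at P7, of which 383 and 83 had under 25% mitochondrial UMIs. When they were clustered together with the kept cells, 193 of the 383 at P1 fell in the neuron-like cluster, which then held 481 P1 cells and 1 P7 cell. They were 40.1% of the neuron-like P1 cells. Their levels were 2937 CPM for Stmn1, 3360 for Stmn2, 2073 for Stmn3 and 198 for Stmn4, near those of the 288 neurons under the limit: the log2 ratios of the first to the second were 0.01 (-0.02 to 0.04), -0.07 (-0.09 to -0.04), -0.04 (-0.08 to -0.01) and -0.19 (-0.30 to -0.08). These neurons gave 98.6% of the Stmn2 UMIs in the P1 barcodes of 5000 or more genes and 68.0% of those of Stmn1. In barcodes of that size Stmn1 was lower in the dividing-like cells than under the limit (1860 against 3241 CPM at P1 and 2230.3 against 3908 CPM at P7, in 52 and 23 barcodes) and higher in the other cells (840 against 484 CPM at P1 and 843 against 449 CPM at P7, in 138 and 59 barcodes). Large barcodes can hold more than 1 cell, and the part of that in these levels was not tested.

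The other genes of the microtubule system were taken as 4 lists. Tubulins are the building blocks, the stabilizing and plus-end proteins hold or extend microtubules, the severing and depolymerizing proteins cut or shorten them, and the kinases are those known to phosphorylate stathmins. In neuron-like against other cells at P1, 15.1% of genes were at least 2-fold higher and 24.9% lower. Of 12 tubulins with enough UMIs, 9 were higher and 2 were lower, with a median log2 ratio of 2.20 against -0.22 over all genes tested. Tubb3, the neuronal beta-tubulin, was 1713 against 17.1 CPM (log2 ratio 6.64), a ratio like those of the neuronal stathmins, and Tubb4a 381 against 19.7 CPM (4.27). Of the stabilizing proteins 10 of 13 were higher (median 2.92), led by Dcx, the microtubule binder of young neurons (229 against 2.33 CPM, log2 ratio 6.62), and Mapt, the axonal protein tau (908 against 10.6 CPM, 6.42). None of 4 severing and depolymerizing proteins passed 2-fold in either direction, and Spast (spastin) had a log2 ratio of 0.97 and Katna1 (katanin) of -0.96. Among the kinases 6 of 11 were higher and 1 was lower, with Mapk10, the neuronal c-Jun N-terminal kinase, at 37.5 against 1.38 CPM and Camk2b at 110.5 against 5.99 CPM.

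In dividing-like against other cells, 6 of 12 tubulins were at least 2-fold higher at P1 and 8 of 12 at P7, where 4.08% and 5.20% of all genes tested were. At P1, 1 of 12 tubulins and 1 of 11 kinases were at least 2-fold lower, and at P7 none of either. The shares that were lower over all genes tested were 5.05% and 10.3%. Tubb4b was 913 against 109 CPM at P1 and 1426 against 141 CPM at P7 (log2 ratios 3.07 and 3.34), next to Tubb6 at P1 (2.68) and Tuba1c at P7 (3.19). Stabilizing proteins were mostly near the level of other cells, with 1 of 12 higher at P1 and 2 of 12 at P7, namely Ckap5, a microtubule polymerase of the spindle (log2 ratios 2.21 and 2.20), and at P7 Mapre1, the end-binding protein EB1 (1.08). Of the severing and depolymerizing proteins 2 of 6 were higher at either age, the mitotic kinesins Kif2c (5.54 and 5.79) and Kif18a (4.88 and 5.55). Of the kinases 3 of 11 were higher at either age, and the highest ratios were those of the mitotic kinases Aurkb (5.49 at P1 and 5.87 at P7), Cdk1 (5.26 at P1) and Plk1 (5.69 at P7). Of the 3 stathmins with enough UMIs, 1 was at least 2-fold higher at P1 (Stmn1) and 2 at P7 (Stmn1 and Stmn3). Stmn3 was under 2-fold at P7 without the 6 barcodes of K12 that had at least 10 neuronal markers (log2 ratio 0.51). Over all recomputed values its P7 ratio ranged from 0.51 to 2.61.

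**Figure D4:**
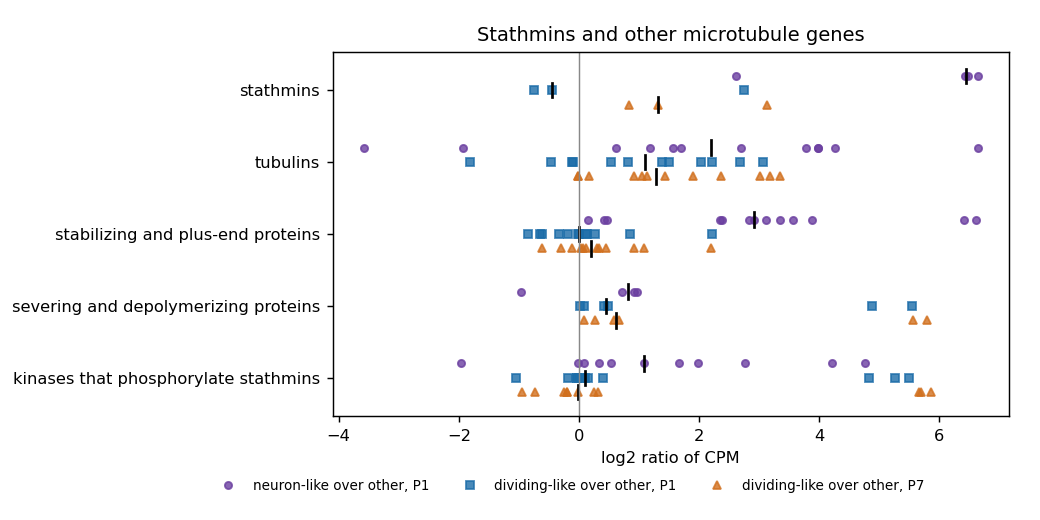
Log2 ratios of CPM for the stathmins and 4 lists of microtubule genes, one point per gene with at least 200 UMIs on a side, for neuron-like over other cells at P1 (purple circles) and dividing-like over other cells at P1 (blue squares) and P7 (orange triangles); black ticks are medians. Neuronal stathmins lie between 6.42 and 6.64 with Tubb3, Dcx and Mapt, and Stmn1 is at 2.61 in neuron-like and at 2.74 and 3.13 in dividing-like cells.

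Between P1 and P7, in the other cells, where 11.1% of 11301 genes were at least 2-fold higher at P7 and 8.03% lower, 1 of 12 tubulins was higher and 2 were lower, Tuba4a (log2 ratio -1.32) and Tubb3 (-1.21). Of 12 stabilizing proteins 1 was higher, Mapre3 (34.6 against 10.8 CPM, 1.68), and 2 were lower, among them Map2 (-1.16). Of 4 severing and depolymerizing proteins 1 was higher, Fign (1.08), and 1 lower, Kif2a (-1.06). Of 11 kinases 1 was higher, Cdk1 (1.44), and 2 were lower, among them Camk4 (-1.91). Of the 3 stathmins tested there, Stmn2 and Stmn3 were at least 2-fold lower (log2 ratios -2.45 and -1.58). In dividing-like cells 8.57% of 5984 genes were at least 2-fold higher at P7 and 5.51% lower, and no gene of the 4 lists was lower. Of 9 tubulins 2 were higher, Tubg1 (1.12), which nucleates microtubules, and Tubb2a (1.03). Of 10 stabilizing proteins 1 was higher, Mapre3 (1.91), and Map1a stood at -0.64. Of 6 severing and depolymerizing proteins 2 were higher, Kif2c (1.54) and Fign (1.26). Of 6 kinases 3 were higher, among them Cdk1 (1.84) and Plk1 (1.21). Of the 2 stathmins tested there Stmn2 was lower (-1.17) and Stmn1 did not pass 2-fold.

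The genes whose levels were most like each member were sought among 12589 genes over the 34 sums of a cluster and a library with at least 50 cells, as Pearson r of log2(CPM + 5). For Stmn1 they were Tubb5 (0.863), Aarsd1 (0.862), Tuba1b (0.857), Cdkn3 (0.845) and Ybx1 (0.843). For Stmn2 they were Stmn3 (0.975), Tubb3 (0.948), Kif5a (0.947), Ina (0.947) and Ttc9b (0.940), and for Stmn3 they were Stmn2 (0.975), Nefh (0.974), Ina (0.974), Tubb3 (0.968) and Ttc9b (0.966). Among the genes most like Stmn4 were Chga (0.987), Cpne4 (0.985), Elavl3 (0.983) and Slc17a6 (0.983). The r of Stmn4 was 0.895 with Stmn2 and 0.924 with Stmn3. Stmn4 stood at 226 CPM in K20 and 46.7 CPM in K19 at P1, and at 19.9 CPM in K19 at P7. In every other sum it was 3.88 CPM or less, under the 5 CPM added, so its r values rest largely on K20 and K19. Stmn1 was less like the others, with r of 0.376 with Stmn2, 0.415 with Stmn3 and 0.335 with Stmn4. The sums share 2 libraries and their depths, so these values are a description.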

How the data were processed

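Single-cell RNA of the cochlear duct was counted in 1 library per age. The deposited matrices hold whole-number UMI counts per gene and barcode, not normalized, which the authors made with bcl2fastq, Cell Ranger and the rat genome rn6, with Seurat 3.1.1 for their own analysis, by the study's methods and the submitters' processing notes. Reads that fit several genes, such as Stmn1 and its processed copies, may be lost or misplaced in that counting.

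Kept barcodes had more than 500 but fewer than 5000 genes, 500 UMIs or more, and a mitochondrial share below 25%. They were log-normalized to 10000 UMIs and clustered in Seurat 5.3.0 (R 4.3.3) on 2000 variable genes, of which 1971 were used after the stathmins and microtubule genes were left out, with 10 principal components, 20 neighbours and a resolution of 0.8. Scrublet (scanpy 1.11.5) called 622 and 775 doublets, which stayed in. Clusters were named by marker lists, where the best list had a mean log2 ratio of at least 1 and at least 3 markers in 10% of cells. These thresholds were set after the clusters were seen. Raw counts were summed per class and library. Levels have exact Poisson intervals, shares exact Clopper-Pearson intervals and ratios exact conditional binomial intervals, at 95%. For counts of 0 the limit is 3 counts. Thinned values use cells of at least 2000 UMIs. Genes with at least 200 UMIs in 1 of the 2 sums entered counts past 2-fold. Named genes were the members, the 2 genes of each list with the largest absolute ratio in a comparison, and the 5 genes most like each member, of which 1 is not reported here. The members and lists were chosen with earlier results of these data known. The ratio and interval steps were tested on simulated data. Sequences came from the RefSeq promoter table (GRCr8), in which 2 of the 4 members matched. No column of per-sample values was left unused.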

Additional observations from a re-analysis of the deposited data

Results flagged for a closer look

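The log2 ratio of P7 to P1 for Stmn1 was 0.31 in dividing-like cells and -0.076 in other cells, where it was 0.049 with cells thinned to 2000 UMIs, so no difference in direction is drawn from it. That of Stmn3 was 0.49 in dividing-like cells and -1.58 in other cells, and the former was -0.20 (-0.58 to 0.18) without the barcodes of at least 10 neuronal markers, of which 6 at P7 held 86 of its 198 UMIs. Relative to other cells, Stmn2 in dividing-like cells had a log2 ratio of -0.44 at P1 and 0.84 at P7, and Stmn3 of -0.75 at P1 and 1.32 at P7. Without those barcodes in dividing-like cells the P7 values were 0.22 and 0.51, and over all recomputed values they reached up to 1.77 and 2.61. These 4 pairs were flagged because the 2 values have opposite signs with counting intervals that leave out 0, and with 1 library per age the differences were not tested.

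Stathmin UMIs also lay in barcodes that failed the lower limits (500 or fewer genes, or 25% or more mitochondrial UMIs) and entered no comparison between classes. At P1 these 906 barcodes held 1071 UMIs of Stmn1, 850 of Stmn2, 590 of Stmn3 and 52 of Stmn4, or 531, 421, 293 and 25.8 CPM. At P7 the 1837 barcodes held 1129, 116, 189 and 19 UMIs, or 215, 22.1, 36.0 and 3.62 CPM. Each count was above the limit that a count of 0 allows.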

How the results depend on the processing

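All values here are log2 ratios, and a value counts as moved where it left the counting interval of the main value. Of 159 recomputed values, 83 stayed inside it, 72 moved without a change of sign and 4 changed sign. For Stmn1 in dividing-like against other cells at P1 (2.74), the moved values were 2.76 at resolution 0.4, 2.78 without doublets, 2.56 with no upper limit on genes, 2.78 under 10% mitochondrial UMIs, 2.88 thinned to 2000 UMIs and 2.80 without the mixed clusters K19, K24 and K25. At P7 (3.13) they were 3.098 with 30 principal components, 3.20 without doublets, 3.05 with no upper limit on genes, 3.31 under 10% mitochondrial UMIs, 3.15 thinned and 3.18 without the mixed clusters. For Stmn2 in neuron-like against other cells at P1 (6.42) they were 6.62 at resolution 0.4 and also with 30 principal components, 6.48 without doublets, 6.36 with no upper limit on genes, 6.92 under 10% mitochondrial UMIs, 6.33 thinned, 6.82 without the mixed clusters and 6.58 without barcodes of at least 10 neuronal markers in the other cells. Stmn3 ranged from 6.22 to 7.07 and Stmn4 from 6.57 to 7.09. In dividing-like against other cells at P7, Stmn2 (0.84) ranged from 0.19 to 1.77 and Stmn3 (1.32) from 0.51 to 2.61. At P1, Stmn2 (-0.44) ranged from -0.72 to -0.047 and Stmn3 (-0.75) from -1.23 to -0.27. For Stmn1 at P7 against P1 in dividing-like cells (0.31) the moved values were 0.25 with 30 principal components, 0.34 without doublets and 0.35 with no upper limit on genes. In other cells (-0.08) they were -0.10 with 30 principal components, -0.14 with no upper limit on genes and -0.23 under 10% mitochondrial UMIs, and thinning turned the sign, to 0.049. Over all kept cells (-0.14) they were -0.31 with no upper limit on genes, -0.35 with no limit on cells and -0.045 under 10% mitochondrial UMIs, and the sign turned when cells were thinned (0.021) and when the neuron-like cells were left out (0.090). For Stmn3 at P7 against P1 in dividing-like cells (0.49) the sign turned, to -0.20, without barcodes of at least 10 neuronal markers, with an interval that holds 0. The cause of these changes was not tested. Leaving out the mixed clusters, the neuron-like cells and the neuronal-marker barcodes were choices made after seeing the data.

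The clustering used in the report held no neuron-like P7 cells, so none of the planned P7 neuron comparisons has a value. Other settings put 137 (resolution 0.4), 77 (under 10% mitochondrial UMIs), 12 (30 principal components) and 1 (no upper limit on genes) P7 cells in a neuron-like cluster. Their Stmn2 stood at 251, 269.7, 909 and 2989.9 CPM, against 3097, 3377, 3282 and 3438 CPM at P1. The 137 cells held 238 UMIs of Stmn2, 355 of Stmn3 and 19 of Stmn4, against 239, 355 and 19 in the 139 P7 cells of K19. That set was thus nearly K19, which carried glial markers as well, and the 77 cells had a Stmn2 level near that of K19. Neither level is read as that of neurons, so neither gives an age difference of neurons. No paired analysis was possible because each age has a single library. Depth limits Stmn4 outside neurons, with 185 UMIs at P1 and 46 at P7 in all other cells.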
